A study of Mus musculus with 6 samples.

Results

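Neuronal cell adhesion molecules are described here in RNA from the dentate gyrus (DG) and the CA1 of the adult mouse hippocampus. Members were all genes whose symbol places them in a cadherin, protocadherin, neurexin, neuroligin, contactin, contactin-associated protein, LRRTM, netrin-G ligand, Slitrk, FLRT, latrophilin, teneurin, DSCAM, SynCAM, NCAM, L1 or IgLON family, and 85 of the 7507 genes counted were found. The symbol pattern also caught 6 genes that only share the prefix Lrrc4 (Lrrc40, Lrrc41, Lrrc42, Lrrc45, Lrrc46 and Lrrc49) and are not known as adhesion molecules, so they were kept apart in the counts by family. The pattern read symbols alone, and its families were picked with earlier results of these data known.

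The experiment asked whether transcripts and open chromatin can be read together from chosen areas of a thin section. Fresh frozen adult mouse brain was cut at 10 µm, polyadenylated RNA was copied into cDNA inside the section, and a 4-digit barcode was written onto the cDNA by ligation steps released by light, a method called Barcoding by Activated Linkage of Indexes (BALI). In each of 3 sections the granular layer of the DG and the CA1 received different barcodes, which gave 3 DG and 3 CA1 libraries, paired by section. The chromatin side of the experiment was not analysed here. No genotype, strain or treatment is given in the sources used here, and the age is given as 12 weeks in one place of the sample labels and as 8 to 12 months in another. The authors speak of biological replicates for the chromatin side, but the sources used here do not say whether the sections came from different animals. The p-values therefore measure only the spread between these sections. Each library sums all cells under the light, so that fewer cells of a type and less RNA per cell cannot be told apart.

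The DG granule cells receive the input from the entorhinal cortex and project through mossy fibres to CA3, while the CA1 pyramidal cells form the main output of the hippocampus. Adhesion molecules join the cells of these circuits: presynaptic neurexins bind neuroligins and LRRTMs across the cleft, latrophilins bind teneurins and FLRTs, and immunoglobulin proteins such as the NCAMs, SynCAMs, L1 proteins and IgLONs bind like or related proteins on the opposite membrane. Cadherins and protocadherins add calcium-dependent contacts, with the clustered protocadherins giving single neurons an identity of their own. Several of these genes are known for very long introns and for many splice forms.

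The libraries were shallow. In sections 1, 2 and 3 there were 17999, 4572 and 6298 gene-assigned UMIs (unique molecular identifiers, which mark single cDNA molecules) from the DG versus 9357, 2844 and 4865 from the CA1, after removal of 1 count that the deposited table carries for every gene in every library. A gene with no UMI could therefore have been present at up to 1.67 to 10.5 UMIs per 10000, the limit set by 3 counts in the deepest and the shallowest library. Known markers gave a weak check of the areas: 9 of 15 DG granule cell markers were counted, with 40 UMIs in all and a higher summed share in the DG in 3 of 3 sections, while 10 of 14 CA1 pyramidal cell markers were counted, with 56 UMIs and a higher share in the CA1 in 2 of 3 sections. Of these 56 UMIs, 32 came from Zbtb20, which granule cells are known to express too, and without it the CA1 share was again higher in 2 of 3 sections. Single markers had few UMIs: Synpr had 6 in the DG and 0 in the CA1, Wfs1 and Neurod6 had 0 in the DG and 2 each in the CA1, and Mpped1 had 1 and 3. Other single markers went against their area. The DG markers C1ql3 and Calb1 had 2 UMIs each and Lct had 1, all in the CA1. The CA1 markers Fibcd1 and Galntl6 had 1 UMI each, both in the DG. Pou3f1, also a CA1 marker, had 2, 2 and 2 UMIs in the DG versus 4, 0 and 0 in the CA1. The DG markers Prox1 and C1ql2 had no row among the genes analysed. Astrocyte markers (9 of 13 counted) took 0.394% to 0.569% of the DG libraries and 0.385% to 0.514% of the CA1 libraries, and oligodendrocyte markers (11 of 13 counted) took 0.503% to 0.828% and 0.738% to 1.02%. The astrocyte share was higher in the DG in all 3 sections, while the oligodendrocyte share and the share of 11 nuclear long noncoding RNAs (4.33% to 6.65% in the DG, 5.93% to 8.86% in the CA1) were lower in the DG in all 3 sections. Markers of oligodendrocyte precursors (3 of 10 counted), microglia (4 of 12), endothelial and mural cells (3 of 10) and interneurons (6 of 12) gave 10, 8, 8 and 22 UMIs. Their shares were higher in the DG in 2, 2, 0 and 3 of the 3 sections. The part that glial RNA or nuclear RNA plays in the values below was not tested.

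Adhesion molecules took between 1.83% and 2.53% of the UMIs of each library, with overlapping ranges in the DG and the CA1. The 85 genes took 330 UMIs of the DG library of section 1, 100 of section 2 and 158 of section 3, which is 1.83% (95% Clopper-Pearson interval 1.64% to 2.04%), 2.19% (1.78% to 2.65%) and 2.51% (2.14% to 2.93%). In the CA1 they took 222, 72 and 111 UMIs, or 2.37% (2.07% to 2.7%), 2.53% (1.99% to 3.18%) and 2.28% (1.88% to 2.74%). The intervals cover counting error only. The DG share was lower than the CA1 share in sections 1 and 2 and higher in section 3. The mean was 2.18% ± 0.338 in the DG versus 2.40% ± 0.127 in the CA1 (SD, n = 3 sections). The log2 ratio of the DG share over the CA1 share was -0.37, -0.21 and 0.14 in sections 1, 2 and 3, with a mean of -0.15 and an SD of 0.26, so that the difference was smaller than the spread between sections.

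**Figure D1:**
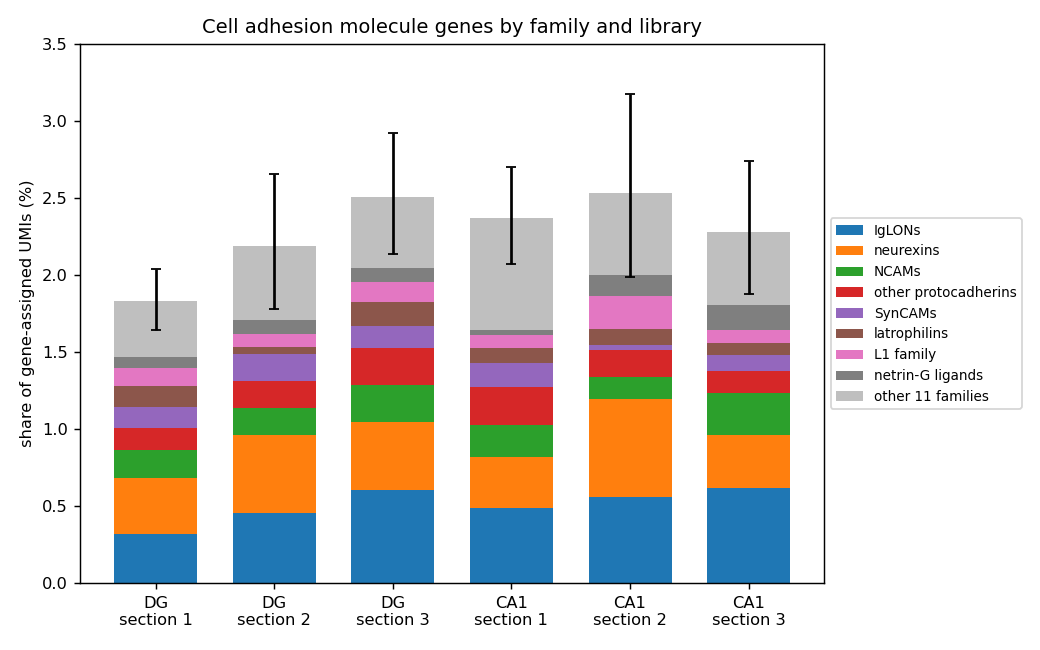
Share of gene-assigned UMIs (%, vertical axis) taken by the adhesion molecule genes in each DG and CA1 library, stacked by family, with the 8 families of most UMIs in colour and the other 11 in grey. Black bars are 95% Clopper-Pearson intervals of the summed share, which lies between 1.83% and 2.53% in all 6 libraries, with IgLONs and neurexins as the widest bands in both areas.

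A few genes carried much of the signal. Of the 993 UMIs of all members, Ntm alone gave 16.4%, and the 10 most counted members gave 61.5%. At the other end, 23 members had a single UMI over the 6 libraries, 40 had between 2 and 9, and 22 had 10 or more. The last group is 25.9% of the members, against 999 genes or 13.3% of all genes counted, and 15 members (17.6%) were seen in all 6 libraries, against 394 genes (5.25%). The number of members with a UMI was 62, 38 and 45 for the DG libraries versus 53, 27 and 36 for the CA1 libraries. Thinned to the 2844 UMIs of the shallowest library, they were expected to show 24.5, 29.0 and 29.5 members in the DG versus 30.9, 27.0 and 27.3 in the CA1.

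**Figure D2:**
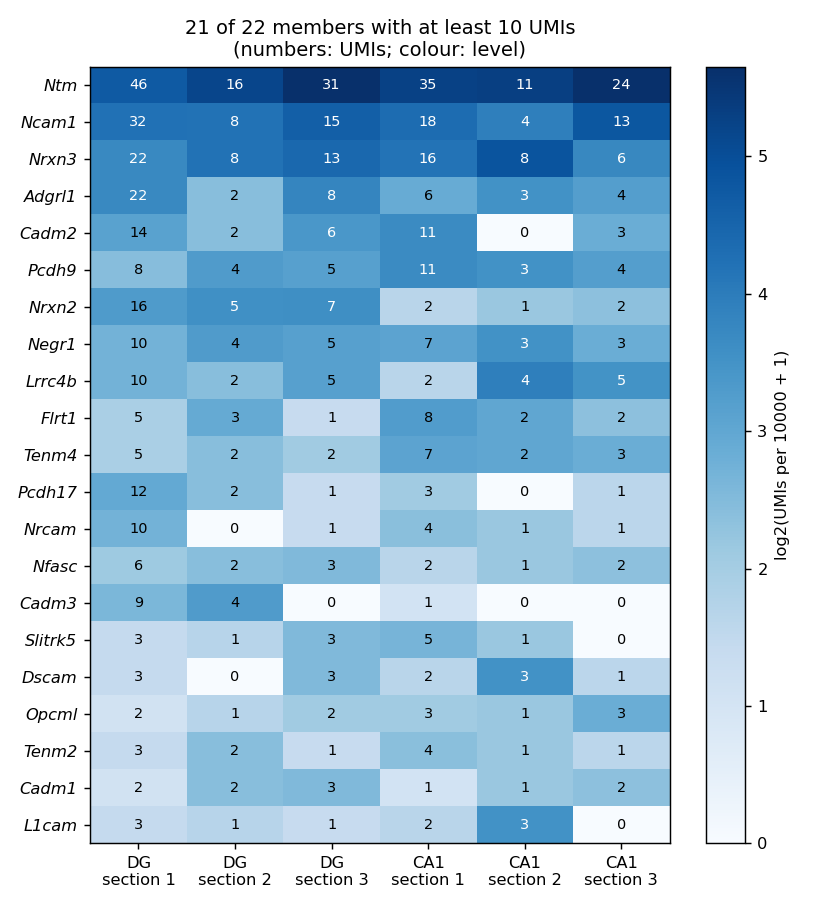
UMIs of 21 of the 22 members with at least 10 UMIs (rows) in the 3 DG and 3 CA1 libraries (columns), with the count printed in each cell and the colour giving log2(UMIs per 10000 gene-assigned UMIs + 1). Ntm is the darkest row in both areas, and Nrxn2 is darker in each DG library than in any CA1 library.

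The adhesion molecule genes were long. In RefSeq's gene models for GRCm38.p6, on which mm10 rests, all 85 were found, with a median span from first to last base of 153 kb, against 29.6 kb over the 7482 of all 7507 genes that were found. Of the members, 49 (57.6%) spanned more than 100 kb, against 19.0% of all genes. The median length of their merged exons was 5.67 kb, against 3.62 kb. Among genes with at least 10 UMIs the medians were 315 kb of span and 7.07 kb of exon for members, and 57.3 kb and 5.37 kb for all genes. Levels of different genes are compared below as UMIs per 10000, averaged over the 6 libraries, with UMIs per 10000 per kb of exon beside them. The barcode and UMI were joined to the primer that starts each cDNA at the poly-A tail, so a UMI marks a single molecule whatever its length. Division by exon length can therefore favour genes with short exons. Positions are given on GRCm38.p6. Whether the number of UMIs grew with exon length was not tested.

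**Figure D3:**
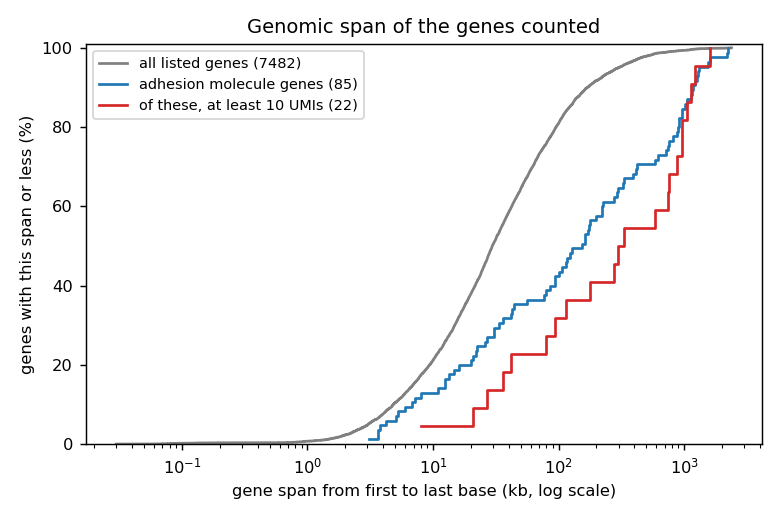
Cumulative share of genes (%, vertical axis) by genomic span in kb (horizontal log axis) for all genes counted and found in the annotation (grey), the 85 adhesion molecule genes (blue) and the 22 of these with at least 10 UMIs (red). The median of the members is 153 kb and that of all genes 29.6 kb.

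The neurexins, presynaptic receptors that organise transmitter release sites, were a main family of both areas. Nrxn3 (chr12:88722701-90334935) had 22, 8 and 13 UMIs in the DG versus 16, 8 and 6 in the CA1. Its levels were 16.8 ± 4.25 per 10000 in the DG versus 19.2 ± 8.10 in the CA1 (SD, n = 3), and the log2 fold change was -0.13 with an SE of 0.41. The levels overlapped, and the DG level was the lower one in sections 1 and 2 and the higher one in section 3.

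Nrxn2 (chr19:6418756-6533217) had 16, 5 and 7 UMIs in the DG of sections 1, 2 and 3 and 2, 1 and 2 in the CA1. Per 10000 UMIs this is 8.89, 10.9 and 11.1 in the DG versus 2.14, 3.52 and 4.11 in the CA1, so that every DG library lay above every CA1 library. An order of this kind was seen in 1 of the 22 members with at least 10 UMIs (4.55%), against 7.11% of all 999 genes with that many UMIs. The means were 10.3 ± 1.24 and 3.25 ± 1.01 (SD, n = 3), and the ratio of the summed shares was 3.31 (95% interval 1.26 to 11, counting error only). Only 5 UMIs stand behind the CA1 values, and in RefSeq's models 2 other genes overlap 2.97% of the exon bases of Nrxn2.

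**Figure D4:**
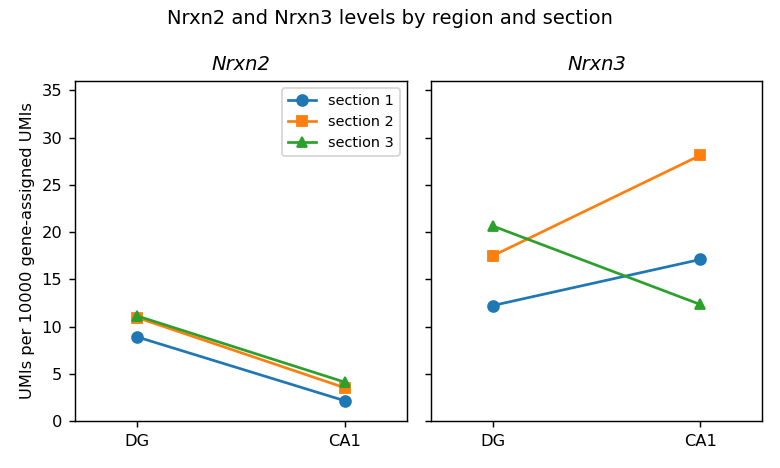
UMIs per 10000 gene-assigned UMIs (vertical axis) of Nrxn2 and Nrxn3 in the DG and the CA1 (horizontal axis), with 1 line and marker for each of 3 sections. The lines of Nrxn2 all run down from 8.89 to 11.1 in the DG to 2.14 to 4.11 in the CA1, while those of Nrxn3 run in both directions.

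In the test across genes no adhesion molecule passed the threshold. With edgeR's quasi-likelihood test and Benjamini-Hochberg adjustment over all genes with at least 10 UMIs, 22 of the 85 members were tested and 0 had an adjusted p under 0.05, against 0 of 999 genes (0%). At an unadjusted p under 0.05, 2 members were higher in the DG (Nrxn2 and Cadm3) and 0 were lower, against 3.70% of all genes higher and 1.50% lower. DESeq2 also called 0 genes, and edgeR with section as a block called 1 gene, which was no member. For Nrxn2 the log2 fold change of the DG over the CA1 was 1.74 with an SE of 0.73 (edgeR, unadjusted p = 0.0170, adjusted p = 0.850). With section as a block it was 1.76 (edgeR, unadjusted p = 0.00952, adjusted p = 0.732), and over 18 alternative fits it ran from 1.31 to 2.01, with adjusted p-values from 0.594 to 1.00.

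The fold changes of the members tested were small beside their errors. Of the 22, 14 (63.6%) had a log2 fold change below 0, against 45.5% of all genes tested, and the median was -0.14, against 0.076 over all genes. The SE ran from 0.30 to 1.25, and 15 of the 22 estimates lay within 1 SE of 0 and 20 within 2 SE. Each SE was derived from the F statistic of the test, so these counts restate the test and add nothing to it. The stricter filter of edgeR's filterByExpr kept 43 genes, of which 3 were members, among them Ncam1 at 0.037 and Ntm at -0.15. It also called 0 genes (0% of those tested), with 2 higher and 1 lower at an unadjusted p under 0.05 and none of these a member, and DESeq2 called 0.

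**Figure D5:**
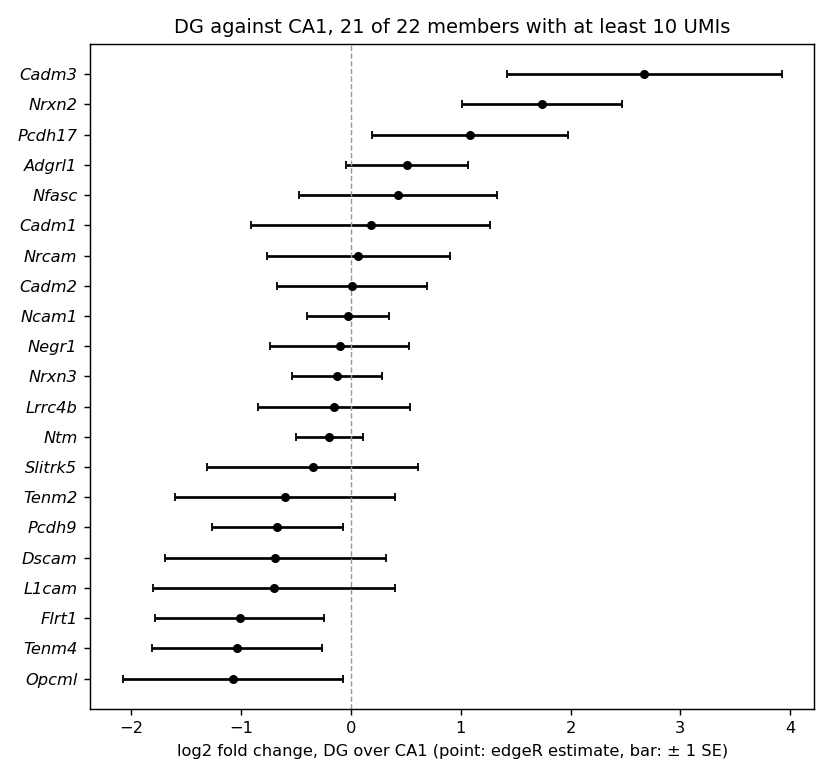
Log2 fold change of the DG over the CA1 (horizontal axis, edgeR, points) with ± 1 SE (bars) for 21 of the 22 members with at least 10 UMIs, ordered by value. The SE was derived from the F statistic of the test. Nrxn2 at 1.74 and Cadm3 at 2.67 are the 2 whose estimate lies more than 2 SE from 0, and neither passed the adjusted threshold.

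Beside Nrxn2, whose levels are given above, 2 members (Opcml and Tenm4, 9.09%) had all DG levels below all CA1 levels, against 5.11% of all genes. Compared within sections, 3 members (Cadm1, Nfasc and Nrxn2) were higher in the DG of every section, or 13.6% against 13.8% of all genes, and 5 (Flrt1, Ntm, Opcml, Pcdh9 and Tenm4) were lower in every section, or 22.7% against 11.8%.

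The IgLONs, small immunoglobulin proteins held in the membrane by a lipid anchor, were the most counted family, with 117 UMIs in the DG versus 92 in the CA1. Ntm (neurotrimin, chr9:28994749-29963269) gave 163 of these. It had 46, 16 and 31 UMIs in the DG versus 35, 11 and 24 in the CA1, or 25.6, 35.0 and 49.2 per 10000 in the DG versus 37.4, 38.7 and 49.3 in the CA1. The DG level was below the CA1 level of its own section each time, by very little in section 3, and the ranges overlapped (log2 fold change -0.20, SE 0.30). Averaged over the 6 libraries, Ntm had the highest level of the members, 39.2 UMIs per 10000, against 19.9 for Ncam1, 18.0 for Nrxn3 and 7.39 for Lrrc4b. Per kb of exon Ntm was also the highest, with 8.88 UMIs per 10000 per kb, against 2.71 for Lrrc4b, 2.03 for Ncam1 and 1.9 for Nrxn3.

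Ntm dominated its family in both areas alike, with 68.8% to 81.6% of the IgLON UMIs of a library. Negr1, which has been linked to body weight in humans, had 10, 4 and 5 UMIs in the DG versus 7, 3 and 3 in the CA1, and its levels overlapped. Opcml, whose gene lies beside Ntm on chromosome 9, had 2, 1 and 2 in the DG versus 3, 1 and 3 in the CA1. Its levels were 1.11 to 3.18 per 10000 in the DG versus 3.21 to 6.17 in the CA1, without overlap but with only 12 UMIs (log2 fold change -1.07, edgeR adjusted p = 1.00). Lsamp, the fourth IgLON, had only 2 UMIs, both in the CA1. The log2 ratio of the summed IgLON share was -0.61, -0.29 and -0.03 in sections 1, 2 and 3 and the ratio over all UMIs was 0.752 (95% interval 0.567 to 0.999, counting error only), while the shares of the areas overlapped.

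Of the NCAMs, which bind each other between neighbouring cells and carry polysialic acid, Ncam1 (chr9:49502129-49799393) was nearly the only one counted. It had 32, 8 and 15 UMIs in the DG versus 18, 4 and 13 in the CA1, whereas Ncam2 had 2 UMIs in all. The mean level of Ncam1 was 19.7 ± 3.57 per 10000 in the DG versus 20.0 ± 6.36 in the CA1 (SD, n = 3), and the log2 fold change was -0.02 with an SE of 0.37. The levels thus overlapped widely.

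The L1 family, which ties the membrane to ankyrin at axon initial segments and nodes, gave 50 UMIs. Nrcam had 10, 0 and 1 UMIs in the DG versus 4, 1 and 1 in the CA1. Nfasc (neurofascin) had 6, 2 and 3 in the DG versus 2, 1 and 2 in the CA1, with a higher level in the DG of each section but overlapping ranges (log2 fold change 0.43, SE 0.90). L1cam had 3, 1 and 1 in the DG versus 2, 3 and 0 in the CA1, and Chl1 had 7 UMIs. None of the 4 had a consistent order apart from Nfasc. The DSCAMs, self-avoidance molecules, gave 20 UMIs: Dscam had 3, 0 and 3 in the DG versus 2, 3 and 1 in the CA1, and Dscaml1 had 8 in all.

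The SynCAMs join pre- and postsynaptic membranes and include the other member with an unadjusted p under 0.05. Cadm3 (chr1:173331892-173368139) had 9, 4 and 0 UMIs in the DG versus 1, 0 and 0 in the CA1. Sections 1 and 2 carried all of its DG signal, and section 3 had none in either area. The ratio of the summed shares was 7.68 with a 95% interval of 1.15 to 327 (counting error only), since a single CA1 UMI stands below it. The fitted log2 fold change was 2.67 (SE 1.25, edgeR, unadjusted p = 0.0328, adjusted p = 0.880), and with section as a block the unadjusted p was 0.0531 (edgeR). How far the fold change depends on the prior count of the fit was not tested.

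The levels of the other SynCAMs overlapped between the areas. Cadm2 had 14, 2 and 6 UMIs in the DG versus 11, 0 and 3 in the CA1, with a log2 fold change of 0.0089. Cadm1 had 2, 2 and 3 in the DG versus 1, 1 and 2 in the CA1, and Cadm4 had 2 UMIs. The summed share of the family was 13.9, 17.5 and 14.3 per 10000 in the DG versus 16.0, 3.52 and 10.3 in the CA1. The low CA1 value was that of section 2, the shallowest library.

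The postsynaptic partners of the neurexins gave few UMIs. The neuroligins Nlgn1 and Nlgn2 had 6 UMIs each: Nlgn1 had 3, 0 and 1 in the DG versus 2, 0 and 0 in the CA1, and Nlgn2 had 2, 0 and 0 in the DG versus 4, 0 and 0 in the CA1. Of the 12 UMIs, 11 came from section 1, whose libraries were the deepest of each area. The LRRTMs gave 17 UMIs, 6 in the DG versus 11 in the CA1, or 3, 2 and 1 versus 5, 4 and 2 by section. Their summed share was lower in the DG of each section, with log2 ratios of -1.68, -1.68 and -1.37 that rest on these few UMIs. The ratio over all UMIs was 0.322 (95% interval 0.0979 to 0.951, counting error only), yet the highest DG share, 4.37 per 10000, was above the lowest CA1 share, 4.11. Lrrtm3 had 1, 2 and 0 UMIs in the DG versus 1, 3 and 2 in the CA1, Lrrtm1 had 7 UMIs and Lrrtm2 had 1, and none reached 10 UMIs to be tested.

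The netrin-G ligands and the Slitrks are other postsynaptic leucine-rich repeat proteins, the first binding netrin-G or receptor phosphatases and the second receptor phosphatases on the axon. Lrrc4b (also called NGL-3) had 10, 2 and 5 UMIs in the DG versus 2, 4 and 5 in the CA1, with a higher DG level in section 1 and a lower one in sections 2 and 3. It had the shortest exons of the 22 members tested, 2.73 kb, and ranked eighth by share of UMIs but second per kb of exon. Slitrk5 had 3, 1 and 3 in the DG versus 5, 1 and 0 in the CA1, and the 5 Slitrks together had 13 UMIs in each area.

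Latrophilins, adhesion receptors coupled to G proteins, gave 53 UMIs, of which Adgrl1 gave 45. Adgrl1 had 22, 2 and 8 UMIs in the DG versus 6, 3 and 4 in the CA1. The DG level was the higher one in sections 1 and 3 and the lower one in section 2, and the log2 fold change of 0.51 was within its SE of 0.56. In RefSeq's models another gene overlaps 13.5% of the exon bases of Adgrl1, and default counting leaves out a read that overlaps both genes.

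Among their partners, the teneurins and FLRTs, the most counted gene of each had a fitted level that was lower in the DG, and neither passed the test. Tenm4 had 5, 2 and 2 UMIs in the DG versus 7, 2 and 3 in the CA1. Its levels were 2.78, 4.37 and 3.18 per 10000 in the DG versus 7.48, 7.03 and 6.17 in the CA1, without overlap, on 21 UMIs (log2 fold change -1.04, SE 0.77, edgeR unadjusted p = 0.179). Flrt1 had 5, 3 and 1 in the DG versus 8, 2 and 2 in the CA1, lower in the DG of each section but with overlapping ranges (log2 fold change -1.01, SE 0.77). Tenm2 had 3, 2 and 1 in the DG versus 4, 1 and 1 in the CA1, while Tenm1 and Tenm3 had 1 and 3 UMIs, all in the DG. Flrt2 and Flrt3 had 3 each, also all in the DG. For the teneurins as a family the log2 ratio was -1.08, 0.052 and -0.37 in the 3 sections, and for the FLRTs it was -0.77, 0.32 and -0.37.

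Among the protocadherins outside the gene clusters, which gave 83 UMIs, Pcdh9 and Pcdh17 were the most counted. Pcdh9 had 8, 4 and 5 UMIs in the DG versus 11, 3 and 4 in the CA1, with a lower DG level in each section (log2 fold change -0.67, SE 0.59). Pcdh17 had 12, 2 and 1 in the DG versus 3, 0 and 1 in the CA1. Its DG level was higher in sections 1 and 2 and lower in section 3, and the log2 fold change of 1.09 had an SE of 0.89. The clustered protocadherins gave 15 UMIs over 10 genes, with 5 for Pcdhga8. Genes of the alpha and gamma clusters share their last exons, 41.7% to 50.1% of the exon bases of those counted here, so reads there cannot be given to one gene.

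The classical and related cadherins gave only 23 UMIs over 11 genes, and no gene had more than 4. Summed, they had 11, 2 and 6 UMIs in the DG versus 1, 0 and 3 in the CA1. Their share was higher in the DG of each section, but the lowest DG share, 4.37 per 10000, was below the highest CA1 share, 6.17, and the ratio over all UMIs of 2.81 had an interval of 0.933 to 11.3 (95%, counting error only). Cdh7, Cdh11 and Cdh13 had 4 UMIs each, of which only 1, for Cdh13, was in the CA1. Cdh5, a cadherin of endothelial cells, had 1 UMI.

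The contactins, membrane-anchored immunoglobulin proteins of axons, gave 10 UMIs in the DG versus 14 in the CA1. Cntn1 had 1, 0 and 1 UMIs in the DG versus 3, 0 and 3 in the CA1. The contactin-associated proteins gave 11 UMIs, 6 of them from Cntnap1, which sits on the axonal side of paranodal junctions. The 6 genes that share only the prefix gave 11 UMIs, 6 of them from Lrrc45. In all 19 families the DG and CA1 shares overlapped.

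Among genes that work with these molecules none passed the test either. Of 49 further synaptic adhesion molecules, 35 were counted, with 259 UMIs and 8 genes tested: 0 had an adjusted p under 0.05, and the median log2 fold change was 0.00037. At an unadjusted p under 0.05, 0 were higher and 1 was lower in the DG (edgeR): Ptprs, a presynaptic receptor phosphatase that binds netrin-G ligands and Slitrks, named after its values were seen. Ptprs had 4, 2 and 3 UMIs in the DG versus 12, 6 and 2 in the CA1 (log2 fold change -1.74, SE 0.67, edgeR unadjusted p = 0.00952, adjusted p = 0.786), with overlapping levels in the 2 areas. Of 36 intracellular partners such as ankyrins, catenins and scaffold proteins, 32 were counted, with 384 UMIs and 9 tested, and 0 passed the adjusted or the unadjusted threshold in either direction (edgeR; median log2 fold change -0.11). The summed share of the further adhesion molecules was 0.456% to 0.778% in the DG and 0.493% to 0.668% in the CA1, and that of the partners 0.766% to 0.889% and 0.695% to 1.01%.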

How the data were processed

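The authors extracted UMIs with UMI-tools, sorted reads to areas by whole or partial barcode (cutadapt 4.1), mapped read 1 to mm10 with STAR 2.7.9a and assigned reads to genes with featureCounts (Subread 2.0.3) under default options, which ignore strand and drop reads that overlap several genes. The deposited counts are UMIs per gene and library with 1 added to each, which was subtracted here; a line of totals was left out. The deposited CPM values, fold ratios and log10 ratios, made by the authors from those counts, were not used.

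DG and CA1 were compared with edgeR 4.0.16 (quasi-likelihood, TMM, R 4.3.3) over all genes with at least 10 UMIs in the 6 libraries or kept by filterByExpr, with Benjamini-Hochberg adjustment at 0.05; DESeq2 1.42.0 was an alternative. Each edgeR SE is the absolute log2 fold change over the square root of the F statistic of the test. The edgeR script was first run on simulated counts, where it had to recover the sign of the largest fold changes set. That requirement does not show what fold change of a member could have been called here. Both libraries of a section share its tissue, so section numbers pair them. Their deviations from the region means correlated at 0.170, 0.0612 and 0.0819, against -0.107 to 0.0153 between sections. Such deviations sum to 0 within a region, so positive values within sections bring negative ones between sections with them. The main fits held the region only, and section entered as a block in an alternative. Shares have Clopper-Pearson intervals (scipy 1.17.1, Python 3.11.15). Named genes are members seen in all 6 libraries, the 25 most counted, the most counted of each family, and those with an unadjusted p under 0.05 or areas without overlap; further members are given by count, and 1 member is not reported here by name. List genes were also matched by older symbols. Members and lists were chosen with earlier results of these data known. Alternatives were other size factors, filters, the section block, counts as deposited and leaving out sections or libraries.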

Additional observations from a re-analysis of the deposited data

How the results depend on the processing

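Depth limited the test: 22 of 85 members reached 10 UMIs. No member passed the adjusted threshold in any of 18 alternatives. With section as a replicate block, 1 gene was called among those with at least 10 UMIs, in place of 0, and also with no filter and the block; the block changed no call of a member. With at least 20 UMIs 1 gene was called as well, and leaving out libraries gave 0 to 1, with 1 only without CA1 replicate 1. The gene was Prkce each time, no adhesion molecule, and the cause was not tested. With at least 20 UMIs, 1 member in place of 2 had all DG levels below all CA1 levels, since Opcml has fewer UMIs. With 1 section left out, 4 to 5 members in place of 3 were higher in the DG of every remaining section, and 7 to 10 in place of 5 were lower (8 without section 1 and 10 without section 3), since fewer sections had to agree. Of 134 alternative log2 fold changes of 22 named members, 119 kept their sign. The other 15 belonged to estimates near 0, and the cause was not tested. Leaving out sections gave -0.40 to 0.055 for Ntm, -0.16 to 0.066 for Ncam1, -0.56 to 0.21 for Nrxn3, -0.30 to 1.00 for Cadm2, -0.36 to 0.20 for Negr1 and -0.72 to 0.28 for Lrrc4b. DESeq2 gave 0.033 for Ncam1 and -0.099 for Nrcam; the counts as deposited gave 0.0051 for Ncam1, -0.046 for Cadm2 and -0.098 for Cadm1; scaling to total UMIs gave -0.036 for Cadm2; and the block gave -0.046 for Cadm2 and -0.049 for Nrcam. The log2 ratio of the summed share stayed between -0.29 and 0.0013 in 18 alternatives, 17 of them below 0. The ratios of the 13 families with a UMI in each library moved by less than 1 SD between sections in 52 of 52 alternatives. Leaving out 1 of 3 sections cannot move a mean by 1 SD, so those alternatives could not have come out otherwise. Some ratios changed sign: that of the latrophilins was 0.74 without section 2 and -0.37 without section 3. That of the LRRTMs stayed at -1.68 to -1.53 with a section left out, but it rests on only 17 UMIs in all. Leaving out 1 section or 1 library in turn, the unadjusted p (edgeR) was at most 0.0873 for Nrxn2, without section 1, and at most 0.192 for Cadm3, without section 2. Cadm3 fell under 10 UMIs without section 1 or its DG library, which hold 9 of its DG UMIs, and was not tested there. The CA1 marker share without Zbtb20 was added after seeing the data.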
